A study of Homo sapiens with 4 samples.

Results

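The MYC network genes besides MYCN are MYC, MYCL, MAX, MXI1, MXD3, MXD4, MNT, MGA, MLX and MLXIP, 10 of 19970 protein-coding genes. Their peaks were chosen by position, as every open chromatin peak that touched a 3 kb window on either side of any of their annotated transcript starts, and for MYC also every peak within 500 kb. This gave 46 of 47610 control peaks and 46 of 42682 sgSNHG1 peaks. Of these, 18 in each list lay at a start of a member and 30 in each list lay in the window around MYC, with both MYC promoter peaks counted in each set.

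The data are ATAC-seq from SK-N-BE(2)C, a human neuroblastoma line with amplified MYCN. In this assay the Tn5 transposase inserts adapters into accessible DNA, so that open regions collect fragments. The control group (2 replicates) was wildtype and carried a non-targeting control gRNA, and the paper describes its non-targeting control as a clone too. The sgSNHG1 group (2 replicates) carried Cas9 with paired gRNAs against the long non-coding RNA gene SNHG1, after puromycin selection and sorting of single cells into clones. The authors pooled both replicates of a group before calling peaks, so each group is 1 list, no spread between replicates can be given and no comparison has a test. How many clones the sgSNHG1 replicates stand for was not given in the sources used here, and in both groups a clone and its treatment cannot be told apart.

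MYC proteins bind DNA as dimers with MAX and recruit coactivators to the E-box, whose letters are CACGTG. MXI1, MXD3, MXD4 and MNT dimerise with MAX at the same letters and recruit SIN3 corepressors, while MGA joins MAX to a Polycomb-like complex. MLX is a second hub of the network that pairs with MLXIP (MondoA), a sensor of glucose metabolites, and with some MXD proteins. Neuroblastoma with amplified MYCN usually carries little MYC, and MAX is the partner that every MYC protein shares.

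The labelled cell type was checked first on a short list of promoters. A promoter peak was present in each list for 6 of 7 neuroblastoma genes and absent for TH. Presence in each list held for 63.7% of all protein-coding genes, so these few genes were a weak check of cell type. Of 4 genes of other cell types, PTPRC, ALB and PECAM1 had no promoter peak in either list, while the highest EPCAM promoter peak had 8.86-fold enrichment in control and 11.3-fold in sgSNHG1. SNHG1 itself had 1 promoter peak in each list, at 5.71 in control and 6.04 in sgSNHG1, which says nothing of its RNA. The median summit pileup over all peaks was 24 fragments in control and 20 in sgSNHG1.

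The E-box stood near a promoter ATAC summit at 7 of 10 members, MAX, MXD3, MXD4, MNT, MGA, MLX and MLXIP, over both lists, and 12.1% of genes with a promoter peak in either list had it. Within 100 bp of a promoter summit, CACGTG (a palindrome, so the same on both strands) stood at 5 of 10 members in control, against 9.31% of the genes with a control promoter peak, and at 6 of 10 in sgSNHG1, against 9.86%. Counted by peak, 7 of 18 control and 6 of 18 sgSNHG1 member peaks held it, where 6.06% and 6.20% of all promoter peaks did. Within 50 bp it was found at 2 members in each list, MXD4 and MGA in control and MNT and MLX in sgSNHG1, against 4.93% and 5.20% of genes, and anywhere in the peak at 6 and 5 members, against 19.5% and 16.4%. The members had a median of 3.00 promoter peaks over both lists and all genes 2, and more peaks give more windows to search. The 3 members without it were MYC, MYCL and MXI1.

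The 30 bases around the E-boxes of 6 of these members are shown because they carry the letters that the products of the same genes bind. Each is read from GRCh38 on the strand of the gene, with the E-box in capitals.
MXD3, chr5:177312264-177312293, minus strand: ccccgcggcaccCACGTGcagcggctgggc
MXD4, chr4:2262330-2262359, minus strand: gggccgggccacCACGTGctgttgctaagc
MNT, chr17:2399717-2399746, minus strand: tccgcccccgacCACGTGcaccggggacac
MGA at its upstream start, chr15:41621468-41621497, plus strand: gcttgcgaccagCACGTGacccgaactggc
MGA in the following intron, chr15:41621725-41621754, plus strand: gcgctgaggcgtCACGTGgacgccacagcc
MGA at its inner start, chr15:41661631-41661660, plus strand: cgccggagcaaaCACGTGgatcatgagaag
MLX, chr17:42567038-42567067, plus strand: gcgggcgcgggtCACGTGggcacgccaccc
MLXIP, chr12:122078371-122078400, plus strand: acccgcacccacCACGTGgagccggccggg

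The E-box at the upstream start of MGA fell on untranslated exon sequence, and the others shown on introns or on sequence before the gene. At MAX, MXD4, MNT and MLX the same E-box lay within 100 bp of the summit in both lists. Within 100 bp, MXD3 and MLXIP had it near an sgSNHG1 summit alone, and the 3 MGA E-boxes were near control summits alone. The same E-boxes of MXD3 and MLXIP also lay inside the called control peak, farther from its summit. That of MLXIP lay outside the called sgSNHG1 peaks. The distances moved with the summits: 69 bp in control and 12 bp in sgSNHG1 at MLX, and 65 bp and 22 bp at MNT. Only 9 of the 13 matches lay inside the called peak.

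MXI1, which lacked CACGTG, had the related letters CACGCG (searched on both strands) near summits in both lists. The sequence at its second start is shown as the match common to both, with CACGCG in capitals.
MXI1, chr10:110211309-110211338, plus strand: ctcttctgacgtCACGCGttgctggggccg
CACGCG stood near a summit of 3 members in control (MXI1, MNT and MGA) and of 2 in sgSNHG1 (MXI1 and MGA), where 15.6% and 16.4% of genes with a promoter peak held it. The E2F-type letters TTCCCGC, searched on both strands, were near 1 member summit in each list, at the start of MYC, against 8.88% and 9.60% of genes. The ETS-type letters CCGGAAG, searched likewise, were near the summit of MAX alone, at 5 bp in control and 11 bp in sgSNHG1, against 16.6% and 17.9% of genes. The overlap of these motifs with one another was not examined, and a match describes the letters and no binding. In the RefSeq promoter table (GRCh38.p14, 250 bases before to 50 after a start), which has 14 entries for 9 of the members, CACGTG was in 3 entries, those of MLX, MNT and MXD4, against 7.26% of all 35116 entries.

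The summit windows of members were rich in G and C, at a median of 66.7% in control (range 51.2% to 74.1%) and 66.2% in sgSNHG1 (54.7% to 77.1%), with 64.2% for all promoter peaks in each list. The ratio of observed to expected CpG was 0.920 and 0.944 for members and 0.731 and 0.755 for all promoter peaks.

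All 10 members had a promoter peak in both lists, where 63.7% of all protein-coding genes did. Over all genes with a promoter peak in either list, 8.46% had one in control alone and 2.76% in sgSNHG1 alone, and no member was in these classes. The highest promoter peak of each gene was compared by its fold enrichment, the ratio of summit pileup to local background. The log2 ratio of sgSNHG1 over control was below 0 for 7 members and above 0 for 3, where 60.4% of all genes with peaks in both lists were below 0. The median of members was -0.12 and that of all genes -0.07, with quartiles of -0.26 and 0.11. As a scaled pileup, which divides the summit pileup by the genome-wide background of its list, the median of members was -0.09 with 6 lower and 4 higher, and that of all genes -0.04.

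Few members differed by more than the counting error of their own peaks, taken here as the Poisson error of both summit pileups. A difference beyond 1 counting error was seen at 2 of 10 members, MXI1 and MNT, and this holds for 23.2% of all genes. No member lay beyond 2 counting errors, and 1.78% of all genes did. MNT was past a log2 ratio of -0.5, as were 7.32% of all genes, and no member was past 0.5, where 2.01% of all genes were. These errors cover counting only and not the spread between cultures or clones.

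**Figure D1:**
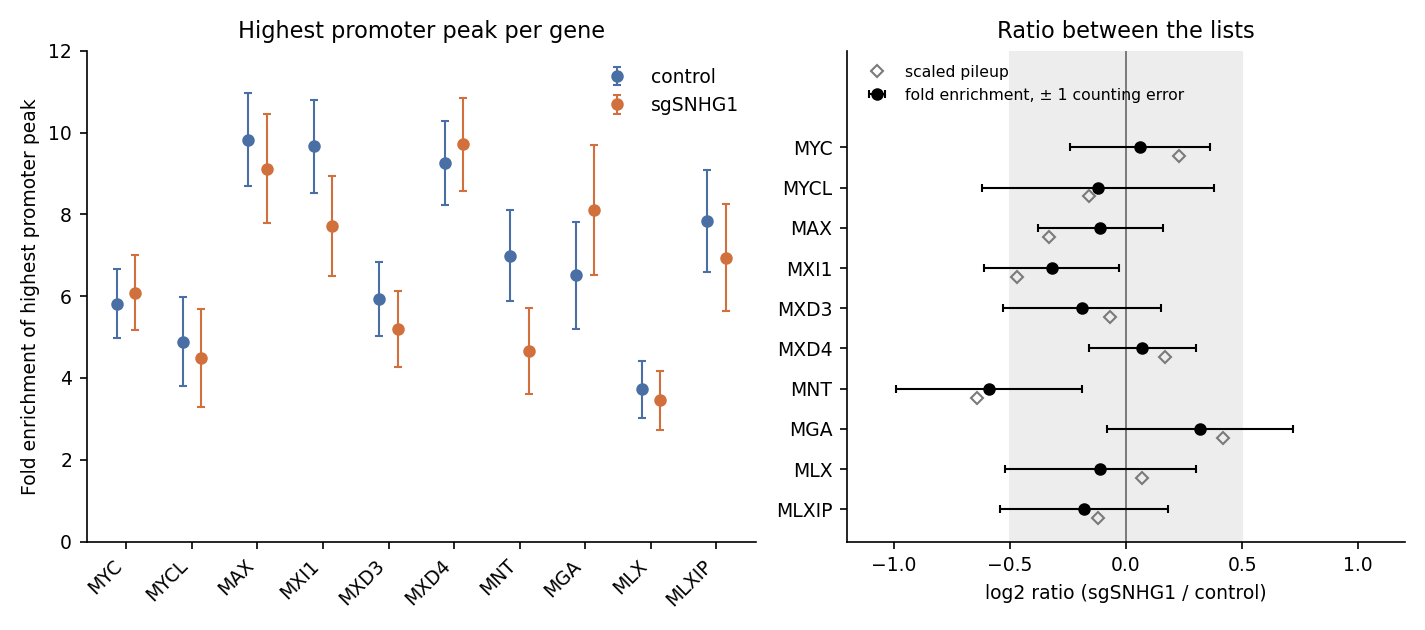
Left, fold enrichment of the highest promoter peak of each member in the control list (blue) and the sgSNHG1 list (orange), with bars of 1 Poisson counting error of the summit pileup. Right, log2 ratio of sgSNHG1 over control with 1 counting error (black) and the log2 ratio of scaled pileup (grey diamonds), with ratios within 0.5 of 0 shaded. MNT lies outside the shading at -0.59, and the other 9 members lie between -0.32 and 0.32.

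Of the activators, MYC, the broadly expressed oncogene of the family, had almost the same promoter fold enrichment in both lists. Its highest promoter peak, at chr8:127734077-127734365 in control, lay 2.0 kb before the start in an intron of the divergent lncRNA CASC11, with 5.82 in control and 6.08 in sgSNHG1 (log2 ratio 0.06, counting error 0.30). The peak over the MYC start was at 5.38 and 6.01 (0.16, counting error 0.31). The promoter windows of MYC and CASC11 share these peaks, so the signal cannot be assigned to one of them. MYCL, the family member first found in small cell lung cancer, had 1 intronic peak near its start (chr1:39901715-39902216 in control) at 4.89 in control and 4.49 in sgSNHG1, with pileups of 20 and 14 (log2 ratio -0.12, counting error 0.50). Both activators sat low among genes with promoter peaks, at percentiles 20.4 for MYC and 9.56 for MYCL by control fold enrichment. This measure divides by local background, which in control was 3.37 times the genome-wide level at the highest MYC peak and 1.49 times at MYCL. The control pileup of that MYC peak was 48 fragments, against a median of 24 over all control peaks.

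MAX, the shared dimer partner, had the highest promoter fold enrichment of the members in control. Its peak at chr14:65102470-65103242, with the summit in an untranslated exon, reached 9.83 in control and 9.12 in sgSNHG1, from pileups of 76 and 47 (log2 ratio -0.11, counting error 0.27). The ratio of scaled pileup was -0.33, so the MAX value was lower in sgSNHG1 on both scales, by less than 1 counting error in fold enrichment. The sgSNHG1 list had a further weak peak in a MAX intron (chr14:65102163-65102280) at 3.24 with a pileup of 16, while the smallest pileup called in control at a like background was 15. MAX stood at percentile 74.3 of all genes in control, and no member stood higher in control.

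The repressor arm held both the lowest and the highest ratio among members. MXI1, a MAX partner of the MXD family, was open at 3 start clusters in both lists. The inner start (chr10:110225630-110226374 in control) had the highest fold enrichment, at 9.66 in control and 7.72 in sgSNHG1, with pileups of 71 and 40 (log2 ratio -0.32, counting error 0.29). By fold enrichment the outer starts were slightly higher in sgSNHG1, at 4.10 and 4.43 for the first and at 6.75 and 7.30 for the second (0.11 at both, with counting errors of 0.34 and 0.26). The 3 starts thus differed in sign on this scale, each by little more than 1 counting error or less. By scaled pileup all 3 were lower in sgSNHG1, at -0.07 and -0.03 for the outer starts and -0.47 for the inner start. The second start was 1 wide peak of 814 bp in control and 2 separate peaks of 231 and 336 bp in sgSNHG1.

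MXD3, which is tied to cycling cells, had 1 intronic peak at chr5:177311712-177312706 in control, at 5.93 in control and 5.20 in sgSNHG1 (log2 ratio -0.19, counting error 0.34). Its promoter window also covers a start of PRELID1, a gene of mitochondrial lipid transport. MXD4, expressed in many resting tissues, was at 9.25 in control (chr4:2262082-2262800, just before the gene) and 9.71 in sgSNHG1, with pileups of 82 and 72 (0.07, counting error 0.23).

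MNT, the most widely expressed MAX-binding repressor, had a peak in the control list that the sgSNHG1 list lacked. The site, at chr17:2396736-2397123, is intronic and lies at an internal transcript start. It had a fold enrichment of 6.99, a pileup of 40 and a -log10 q of 20.2 in control, and the nearest sgSNHG1 peak was 2501 bp away. Among control promoter peaks with no overlap in sgSNHG1 it stood at percentile 97.0 by fold enrichment. The smallest pileup that the sgSNHG1 list called at a like background was 13, and weaker sites were not listed there. The 61 bases around the control summit are shown because the MNT ratio rests on this site. They lie on the strand of the gene and held none of the motifs searched.
MNT control summit, chr17:2396948-2397008, minus strand: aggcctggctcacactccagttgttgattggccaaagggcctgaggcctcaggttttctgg
The other MNT sites did not differ between the lists by their counting errors. The peak before the gene was at 4.53 in control and 4.66 in sgSNHG1 (0.04, counting error 0.45), and that nearest the E-box was at 3.40 and 3.57 (0.07, counting error 0.50). The gene ratio of -0.59 (counting error 0.40) compares the control-only site with the upstream site of sgSNHG1, and it was 0.04 when only overlapping peaks or the start of the gene record were used. Summed over all MNT promoter peaks, 3 in control and 2 in sgSNHG1, the log2 ratio was -0.86.

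MGA, which carries both a T-box domain and a MAX-binding domain, had the highest ratio of the members at its highest peak and 2 peaks listed in control alone. The inner start (chr15:41660295-41660850 in control) was at 6.51 in control and 8.10 in sgSNHG1, from pileups of 25 and 26 (log2 ratio 0.32, counting error 0.40). The upstream start was at 4.06 and 5.06, from pileups of 12 and 13 (0.32, counting error 0.58). Both differences were within 1 counting error. The control-only peaks were at chr15:41621594-41622160 with 4.06 and a pileup of 12 and at chr15:41661695-41661984 with 4.48 and a pileup of 17. The smallest pileups called in sgSNHG1 at like backgrounds were 9 and 10, so these sites were not far above the calling limit. An E-box lay 11 bp from the summit of the former, inside the peak, and 87 bp from the summit of the latter, outside the peak. Summed over all promoter peaks of a gene, the log2 ratio of MGA was -0.54 and had the opposite sign, as had those of MAX (0.33), MXI1 (0.23) and MLXIP (0.49), and the median of members was -0.02. Such sums depend on the number of called peaks, which was 4 in control and 2 in sgSNHG1 at MGA. It was 1 and 2 at MAX, 3 and 4 at MXI1, and 1 and 2 at MLXIP.

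In the MLX branch neither gene moved beyond its counting error. MLX had the lowest fold enrichment of the members, at 3.72 in control (chr17:42566806-42567121) and 3.45 in sgSNHG1 (log2 ratio -0.11, counting error 0.41), which put it at percentile 1.25 of all genes in control. Its rank was not lowest by pileup, at 28 in control against 20 for MYCL and 25 for MGA. The local background of MLX in control was 3.09 times the genome-wide level. Its promoter window is shared with COASY, an enzyme of coenzyme A synthesis. MLXIP was at 7.84 in control (chr12:122078278-122078941, before the gene) and 6.94 in sgSNHG1 (-0.18, counting error 0.36), and the 1 control peak overlapped 2 sgSNHG1 peaks.

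In all, 3 of 18 control promoter peaks of members had no overlap in sgSNHG1, where 24.2% of all control promoter peaks had none. In the other direction 1 of 18 had none, against 12.5%. The main difference across the members was in the width of called peaks, and it was shared with the whole series. The genome-wide background was 2.20 fragments in control and 1.72 in sgSNHG1, and the part of depth in these widths was not tested. Of 15 one-to-one pairs of overlapping member peaks, 14 were narrower in sgSNHG1, and 82.7% of all promoter pairs were. The median log2 width ratio was -0.42 for members and -0.42 for all promoter pairs. Over the members the peaks covered 8898 bp in control and 5743 bp in sgSNHG1, a ratio of 0.645 against 0.681 for all promoter peaks. The median width was 445 bp and 264 bp for members, and 450 bp and 313 bp for all promoter peaks.

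In bp, the largest losses of width among the pairs were at MXD3, from 995 to 378 bp, and at the second start of MXI1, from 814 to 336 bp, where a further sgSNHG1 peak of 231 bp overlapped the same control peak. On the log2 scale the MNT peak before the gene lost most, from 336 to 120 bp (-1.49, against -1.40 at MXD3). The 1 member pair that was wider in sgSNHG1 was the MNT peak nearest the E-box, from 198 to 236 bp. Of the same 15 pairs, 6 had a lower fold enrichment in sgSNHG1, and the median log2 ratio of the pairs was 0.06, against -0.07 for all promoter pairs. A control peak overlapped 2 sgSNHG1 peaks at 2 members, MXI1 and MLXIP, that is 2 of 15 shared control peaks, against 7.58% of all shared promoter control peaks. Summits of paired peaks lay a median of 61 bp apart (range 14 to 206 bp), against 44 bp for all promoter pairs, and 6 of 15 were within 50 bp, against 54.0%.

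**Figure D2:**
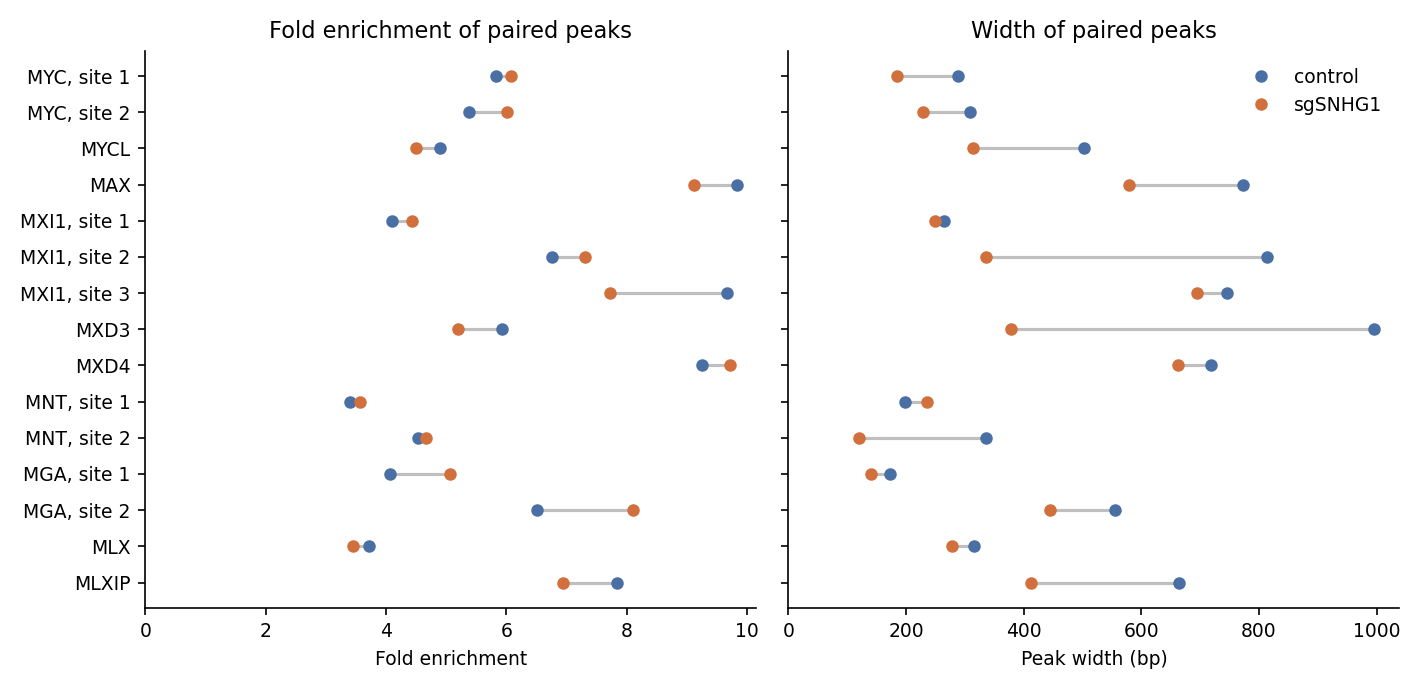
Fold enrichment (left) and width in bp (right) of the 15 pairs of overlapping promoter peaks of members, with control in blue, sgSNHG1 in orange and a line joining each pair; sites of a gene are numbered along the chromosome. The sgSNHG1 point lies left of the control point for 14 of 15 widths and for 6 of 15 fold enrichments.

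The MYC gene desert on 8q24 was studied as a region, since enhancers of MYC are spread over it in many cancers. PVT1 is the long non-coding RNA gene downstream of MYC, and its promoter is known to compete with MYC for enhancers. Each list had 30 peaks within 500 kb of MYC. Over all protein-coding genes the median in a window of the same size was 24 in control and 21 in sgSNHG1, and 65.5% and 72.2% of genes had fewer than MYC. The summits of 23 control and 22 sgSNHG1 peaks lay within PVT1. The local background at these peaks was 2.67 times the genome-wide level in both lists, against 1.57 and 1.59 for all peaks.

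Of the control peaks 21 overlapped an sgSNHG1 peak, a share of 70.0% (95% Wilson interval 52.1% to 83.3%). Of the sgSNHG1 peaks 20 overlapped a control peak, which is 66.7% (48.8% to 80.8%). All peaks of the series overlapped at 66.7% in control and 78.2% in sgSNHG1, and peaks farther than 3 kb from any start at 59.0% and 69.8%. The locus holds peaks of both kinds, and its intervals cover counting error only and take neighbouring peaks as independent. Beyond 3 kb upstream of MYC, 1 of 4 control and 1 of 6 sgSNHG1 peaks overlapped, and 17 of 23 control and 17 of 22 sgSNHG1 peaks with a summit within PVT1 did. These counts are small and the difference between the stretches was not tested. Peaks of 1 list alone had fold enrichments from 3.04 to 5.20 in control and from 2.94 to 5.36 in sgSNHG1. The median of all peaks at the locus was 5.31 in control and 5.02 in sgSNHG1.

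The 20 one-to-one pairs at the locus were split evenly, with 10 lower and 10 higher in sgSNHG1 and a median log2 ratio of 0.00. Among all distal pairs of the series 51.7% were lower. Distal pairs lie away from starts, whereas the locus set also holds pairs within 3 kb of a start, such as those at MYC and PVT1. The shares of distal pairs are therefore not for a like set. A log2 ratio of at most -0.5 was seen at 4 pairs, against 9.53% of distal pairs, and one of at least 0.5 at 2 pairs, against 7.75%. Beyond 2 counting errors were 3 of the 20, against 2.68% of all pairs of the series. Within PVT1, 9 of 16 pairs were lower and 7 higher, with a median of -0.02.

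**Figure D3:**
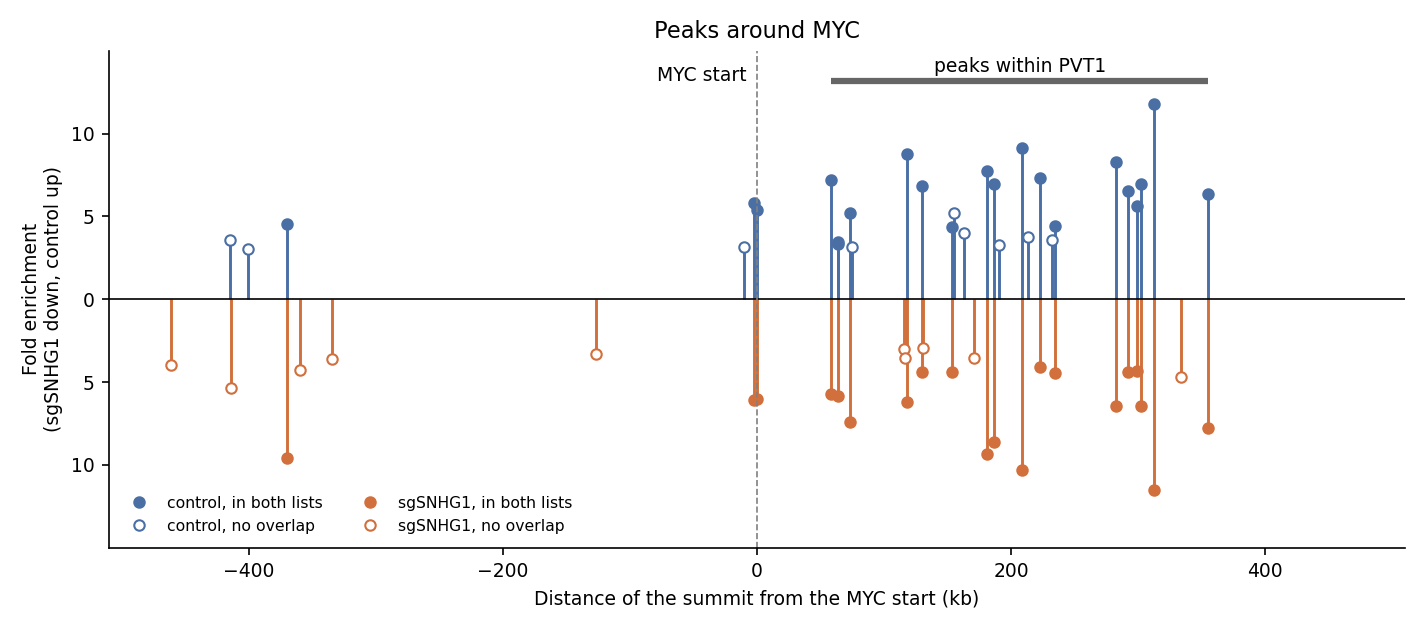
Peaks within 500 kb of MYC by the distance of the summit from the MYC start in kb (x axis) and fold enrichment (y axis), with control drawn upward in blue and sgSNHG1 downward in orange; filled circles overlap a peak of the other list and open circles do not. Most peaks lie downstream within PVT1 (grey bar), and the filled peak 370.1 kb upstream is taller in sgSNHG1 at 9.56 than in control at 4.57.

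The largest difference at the locus was 370.1 kb upstream of the MYC start, in introns of the overlapping genes CASC8, PCAT1 and POU5F1B. Its fold enrichment was 4.57 in control (chr8:127365991-127366224, pileup 23) and 9.56 in sgSNHG1 (pileup 44). The log2 ratio was 1.07 with a counting error of 0.37, and 1.29 by scaled pileup. A ratio of at least 1 was reached by 70 pairs of the series, or 0.221%. The pair was picked as the largest at the locus, so this share does not measure how rare such a site is. This site was among the 5 highest of the locus in sgSNHG1 and not in control. The pairs within 5 Mb of MYC had a median scaled ratio of -0.06, and whether the stretch around this site differed was not tested.

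Downstream, the pair 63.5 kb from the MYC start was at 3.33 in control and 5.82 in sgSNHG1 (log2 ratio 0.80, counting error 0.37). Here 2 control peaks overlapped 1 sgSNHG1 peak. The pair at 222.6 kb went the other way, from 7.34 to 4.11 (-0.84, counting error 0.39). Both lie in introns of PVT1. At the PVT1 start, 58.2 kb downstream, the values were 7.21 and 5.71 (-0.34, counting error 0.31), while the MYC start differed by 0.16, and neither passed 2 counting errors.

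The highest peak of the locus was the same in both lists, at an internal PVT1 start 312.9 kb downstream, with 11.8 in control and 11.5 in sgSNHG1, pileups of 131 and 90, and widths of 1037 and 967 bp. The next in both lists was near 208.6 kb, at 9.12 and 10.3. In control these were followed by the peaks at 118.0 kb (8.78), 282.6 kb (8.30) and 181.5 kb (7.73). In sgSNHG1 they were followed by the site 370.1 kb upstream and those at 181.5 kb (9.33) and 186.6 kb (8.61). So 3 of the highest 5 were common to both lists.

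Beside the members, 56 genes of partners, cofactors and targets were read in the same way. A promoter peak was in both lists for 49 of them, in control alone for SUDS3, KAT2A, BOP1 and FBL, in sgSNHG1 alone for SIN3B, and in neither for USF2 and CCND2. Over all protein-coding genes, the share with peaks in both was 63.7%. Of those with a peak in either list, 8.46% were in control alone and 2.76% in sgSNHG1 alone. Among the 49, 30 were lower and 19 higher, with a median log2 ratio of -0.08, where 60.4% of all genes were lower with a median of -0.07. By scaled pileup the median was -0.01. A ratio of at most -0.5 was seen at 4 of the 49, against 7.32% of all genes, and of at least 0.5 at 1, against 2.01%. MYCN itself was at 4.30 in control and 3.89 in sgSNHG1, from pileups of 3507 and 2068 (log2 ratio -0.14, counting error 0.04), and its ratio of scaled pileup was -0.40. MYCN is amplified in this line, and the part of copy number in these values was not tested. The small counting error leaves out the spread between cultures or clones.

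The partners of MGA held the widest spread among these groups. E2F6, the DNA-binding repressor of the complex that MGA and MAX join, was lowest among genes whose -log10 q reached 5 in each list, at 9.72 in control and 5.67 in sgSNHG1 (log2 ratio -0.78, counting error 0.33). L3MBTL2, a chromatin-binding member of the same complex, was highest, at 6.16 and 9.15 (0.57, counting error 0.39). The group of 8 had a median of -0.05, with 5 lower and 3 higher. The next lowest were ODC1, the rate-limiting enzyme of polyamine synthesis and a classical MYC target, at 9.85 and 5.92 (-0.73, counting error 0.27), and SKP2, a ubiquitin ligase subunit that acts on MYC, at 17.4 and 12.6 (-0.47, counting error 0.21).

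The next highest were ZBTB17 (MIZ1), through which MYC represses genes, at 6.01 and 7.79 (0.37, counting error 0.43), and GSK3B, the kinase that marks MYC for degradation, at 7.57 and 9.40 (0.31, counting error 0.17). The 14 MYC and MYCN targets with peaks in both lists had a median of 0.02, with 6 lower and 8 higher. The 9 coactivators and partners of MYC had a median of -0.21 with 7 lower, and the 9 genes of MYC turnover -0.17 with 6 lower, while their scaled medians were -0.01 and -0.06. The 2 MondoA-MLX targets, TXNIP and ARRDC4, were at 14.6 and 12.9 in control and at 14.6 and 11.9 in sgSNHG1. By fold enrichment both genes were above every member in each list, while MLX was lowest. The local background of MLX in control was 3.09 times the genome-wide level, which lowers this measure.

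**Figure D4:**
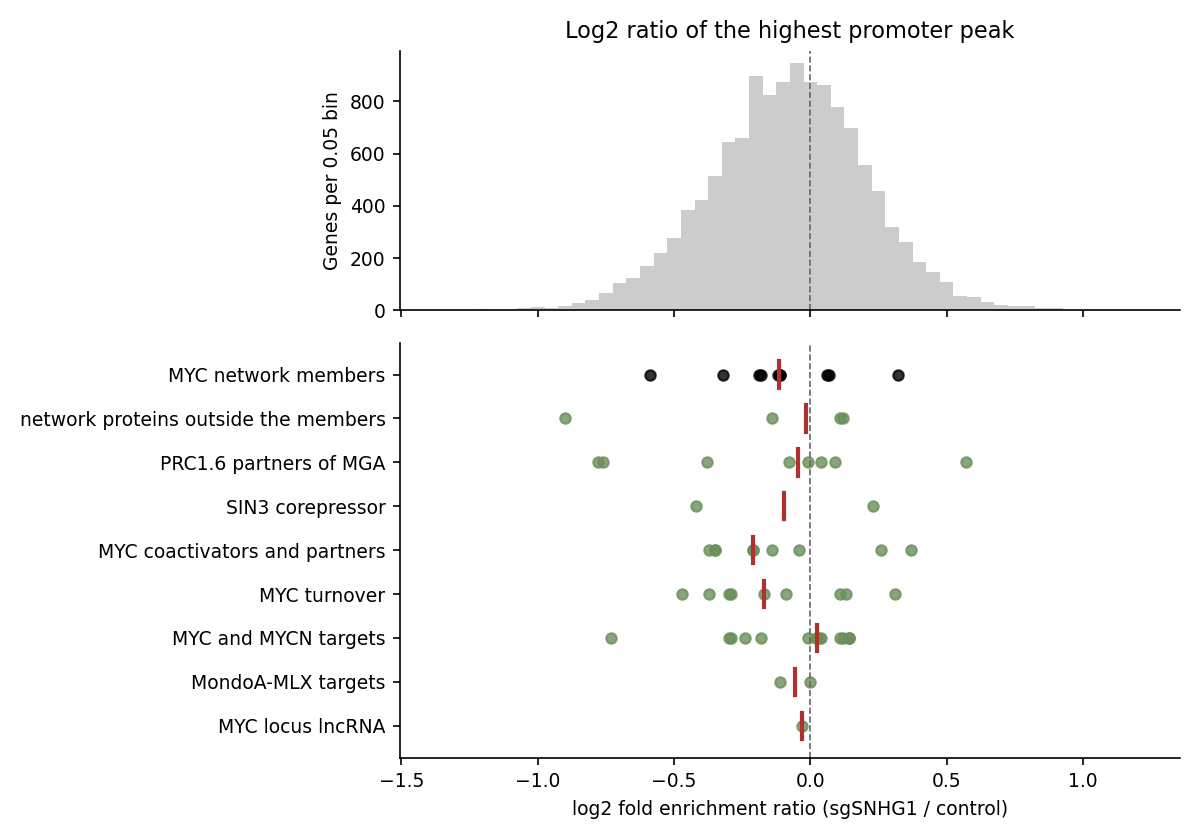
Top, number of protein-coding genes by log2 ratio (sgSNHG1 over control) of the highest promoter peak in bins of 0.05. Bottom, the same ratio for each member (black) and each related gene (green) by group, with the median as a red line; the median of members is -0.12, and the related genes range from -0.90 to 0.57.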

How the data were processed

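ATAC-seq of 4 samples was deposited by the authors as 2 peak lists, 1 per group. Per the study's methods and the submitters' processing notes, reads were trimmed with cutadapt, aligned to GRCh38 with BWA, filtered with Picard and GATK and shifted to the transposase cut with deepTools, and peaks were called with MACS2 on fragments pooled over both replicates, so weak sites may rest on 1 library. Versions are not given in the sources used here. The score deposited by the authors is -log10 q times 10, the deposited fold enrichment is a ratio of summit pileup to local background, each with a pseudocount, and the deposited -log10 p and -log10 q values come from a Poisson model. The number of columns of per-sample values left unused is 0.

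Summit pileups were solved from fold enrichment and -log10 p, for 47609 of 47610 control and all 42682 sgSNHG1 peaks to within 0.001, and this step was tested on simulated data. Scaled pileup divides them by the genome-wide background (2.20 control, 1.72 sgSNHG1 fragments). Starts came from GENCODE 44 on GRCh38, and MYC distances count from the MANE Select start. Overlap meant at least 1 bp, and pairs were mutual best overlaps. A gene took its highest peak within 3 kb of any start. Errors are Poisson counting errors. Python 3.11.15, pandas 2.3.3, numpy 2.4.6 and scipy 1.17.1 were used.

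Members and lists were chosen with earlier results of these data known. All members were named. Related genes were named when in 1 list alone or among the 3 lowest and 3 highest ratios where -log10 q reached 5 in each list. At the MYC locus the 5 highest peaks of each list were named, with peaks of the MYC promoter and first PVT1 start. The 3 pairs beyond 2 counting errors there were named by their values. Alternatives were other windows, thresholds, overlaps, scales and gene summaries. The sequence at 1 member E-box is not reported here.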

Additional observations from a re-analysis of the deposited data

How the results depend on the processing

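No paired analysis was possible because each group is 1 pooled list, and for the same reason no replicate could be left out. MNT was 0.04 with the gene record start only and 0.04 with the best overlapping pair, since both settings leave out the control-only site, and MXI1 was 0.11 with the former. As a sum over all peaks of a gene, MGA was -0.54, MAX 0.33, MXI1 0.23 and MLXIP 0.49, each with its sign turned, and the median of members was -0.02. MNT kept its sign in this sum, at -0.86. Sums of this kind depend on the number of called peaks as well as on their fold enrichment. By scaled pileup MLX turned to 0.07. With a -log10 q of at least 5, 2 members, MYCL and MLX, kept a promoter peak only in control. With at least 10, 1 member, MNT, did, with 11 control and 10 sgSNHG1 promoter peaks left. The sgSNHG1 peaks of MYCL and MLX fell just short of 5, at 4.83 and 4.96. Shares of all genes at these limits are not given here. Around MYC, a window of 250 kb held 18 sgSNHG1 peaks. The share of MYC locus peaks in both lists was 84.0% in control and 87.0% in sgSNHG1 with a -log10 q of at least 5, and 46.7% in each with an overlap of 50% of both peaks. Shares of all peaks of the series at these 2 settings are not given here. The E-box within 50 bp of a summit was found at 2 members in control and 2 in sgSNHG1. Depth limits the weak peaks most: sites of MYCL, MGA and MNT rest on 12 to 26 fragments apart from the control-only MNT site, where counting errors of a ratio reach 0.58.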
